A study of Mus musculus with 18 samples.

Results

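Interferon-stimulated genes were followed in primary mouse brain cultures and in the small extracellular vesicles (sEVs, tiny lipid-enclosed packets shed by cells) that these cultures released. The genes were taken by symbol from a list of 42 genes known to respond to interferon. Of these, 41 had a row among the 54307 genes of the deposited table. No row carried the symbol Ddx58. The same gene, which encodes the RNA sensor RIG-I, is listed under its newer symbol Rigi, and its values are given apart from the 41. Polyadenylated RNA was sequenced in 18 libraries, 3 each of microglia sEVs, microglia cells, astrocyte sEVs, astrocyte cells, neuron sEVs and neuron cells. All came from primary cultures of mouse brain, and the study asked whether each cell type packages its own set of mRNAs into sEVs. The strain, the age of the animals, the days in culture and any treatment are not given in the sources used here, nor whether replicates were separate cultures. The p-values therefore measure only the spread between these samples.

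Type I interferons bind a receptor on the cell surface and activate the kinases JAK1 and TYK2. The signal reaches the nucleus through factors that include STAT2 and IRF9, and switches on genes that carry an interferon-stimulated response element in their promoters. Interferon gamma acts through a different promoter element, the gamma-activated site. The products of the induced genes sense viral RNA, block its translation and replication, or feed back on the pathway, and microglia are known as brain cells that respond strongly to interferon.

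To show the interferon-stimulated response element, stretches of promoter are given for the 4 members with a match of that element that had the highest mean in microglia cells. Ifit2 and Cmpk2 had higher means there than Ifit1, but their windows held no match. The response element was searched as GAAANNGAAA and its reverse complement TTTCNNTTTC in the RefSeq promoter windows of GRCm38.p6, which run from 250 bases before to 50 bases after each start. The gamma-activated site was searched as TTCNNNGAA, which reads the same on both strands. Each line below reads 5′ to 3′ on the strand of the gene, with the response element in capitals.
Rsad2: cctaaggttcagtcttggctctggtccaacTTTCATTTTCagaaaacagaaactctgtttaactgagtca
Ifit1: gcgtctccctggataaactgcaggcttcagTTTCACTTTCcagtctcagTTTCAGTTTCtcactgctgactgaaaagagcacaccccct
Ifit3: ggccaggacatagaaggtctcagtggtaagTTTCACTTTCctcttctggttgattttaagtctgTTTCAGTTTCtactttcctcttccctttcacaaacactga
Gbp2: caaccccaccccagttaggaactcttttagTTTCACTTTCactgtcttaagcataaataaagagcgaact
The Rsad2 stretch lies at chr12:26456533-26456602 on the minus strand, the Ifit1 stretch at chr19:34640755-34640843 on the plus strand, the Ifit3 stretch at chr19:34583343-34583446 on the plus strand and the Gbp2 stretch at chr3:142620574-142620643 on the plus strand. Ifit1 and Ifit3 each held 2 matches, and Rsad2 and Gbp2 1 each. Windows were at hand for 31 of the 41 members, 38 windows in all. The response element was found in 50% of these windows, against 3.44% of all 32851 windows of the table, and counted by gene in 18 of 31 members, against 3.99% of 27025 genes. The gamma-activated site was found in 26.3% of the members' windows, against 8.30% of all windows. A match describes letters in the window and was not tested as a binding site.

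Summed over genes, the normalized counts ranged between 36947428 and 69276566 per library. These sums are not read counts, and the reads behind them could not be recovered from the deposited values. The microglia label held in the marker genes: the summed normalized count of 14 microglia markers was 195524 to 270863 in microglia sEVs and 719586 to 789564 in microglia cells. In the other cultures that sum was far lower, at 489 to 2001 in astrocyte sEVs, 2760 to 5771 in astrocyte cells, 381 to 1241 in neuron sEVs and 2627 to 2835 in neuron cells. Tmem119, a microglia surface marker, was listed at 0 in all 3 microglia sEV libraries. Astrocyte and neuron cultures also held other brain cells: the sum of 10 oligodendrocyte lineage markers was 92843 to 188785 in astrocyte sEVs and 269560 to 480650 in astrocyte cells, and that of 10 astrocyte markers was 114802 to 162813 in neuron sEVs and 137016 to 150375 in neuron cells. Markers of lymphocytes and granulocytes summed to no more than 15.5 in any library.

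Interferon-stimulated genes were a large part of the RNA of microglia and of their sEVs, and a small part in the other cultures. The 41 genes together made up 6.75 to 7.48% of the summed normalized counts in microglia sEVs and 6.75 to 7.53% in microglia cells. The same share was 0.0366 to 0.0414% in astrocyte sEVs, 0.0328 to 0.0406% in astrocyte cells, 0.00993 to 0.0147% in neuron sEVs and 0.0146 to 0.0207% in neuron cells. In bulk libraries, fewer cells of a type and less RNA per cell cannot be told apart. The part that the few microglia markers in astrocyte and neuron libraries have in the members' values there was not tested. Every member had a normalized count of at least 10 in all 6 microglia libraries. In single libraries that level was reached by 19 to 30 members in astrocyte sEVs, 30 to 34 in astrocyte cells, 24 to 26 in neuron sEVs and 27 to 30 in neuron cells.

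**Figure D1:**
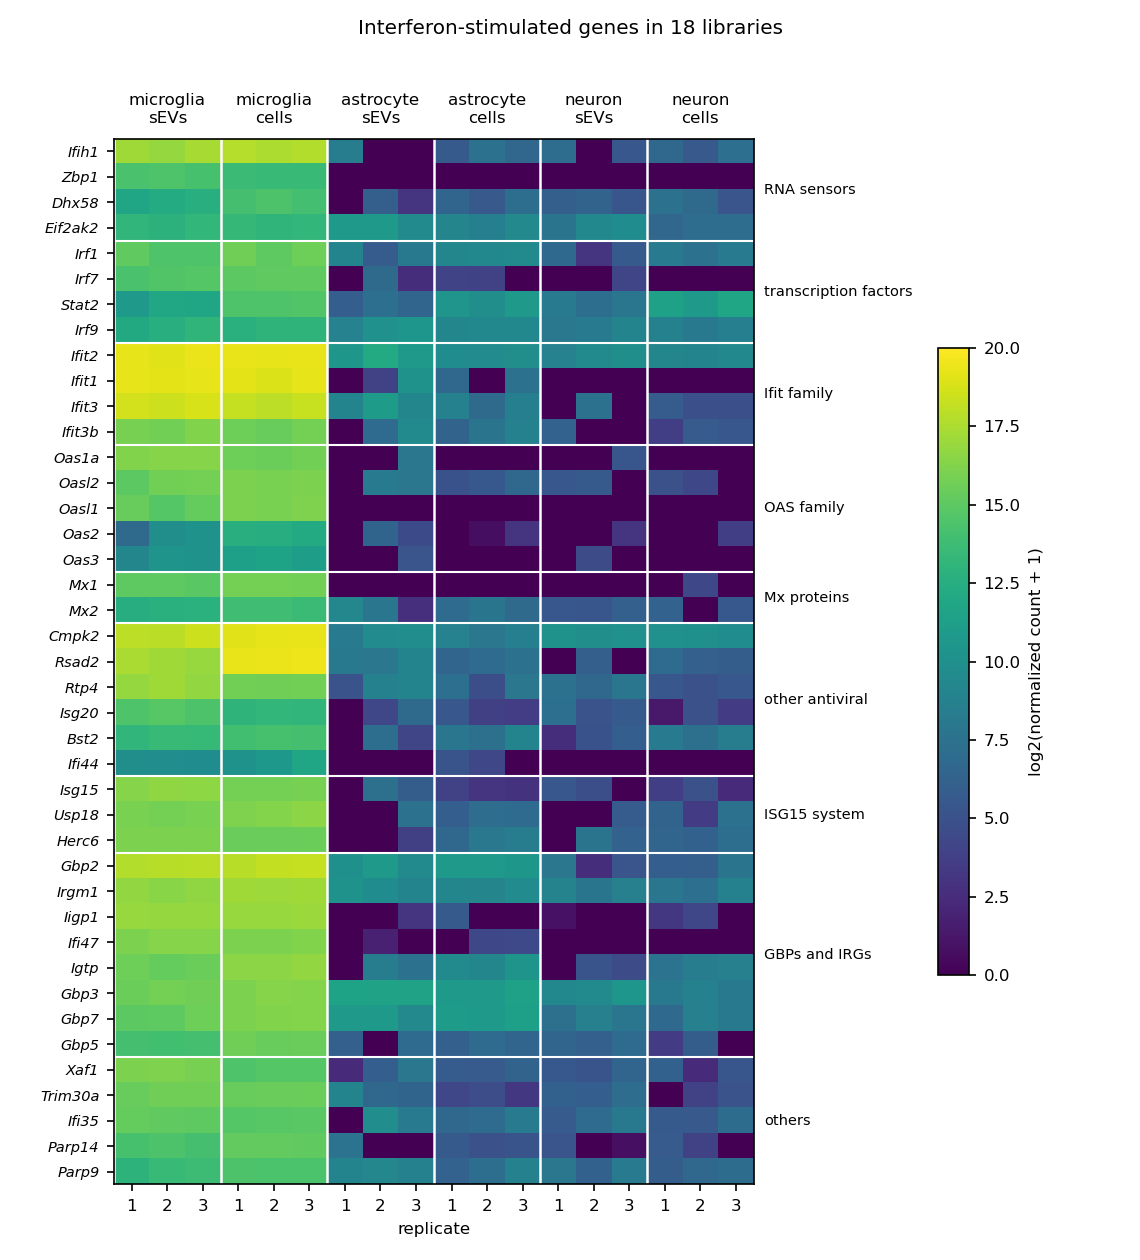
Level of each of the 41 interferon-stimulated genes in each of the 18 libraries, as log2 of the normalized count plus 1 (colour scale). Columns are libraries in their 6 groups of 3 replicates, and rows are genes grouped by role. For every gene except Stat2, each of the 6 microglia libraries is above each of the other 12.

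Differences were tested with limma on log2 of the normalized count plus 1, after leaving out genes that did not reach 10 in 3 or more of the libraries fitted. Called genes are those whose p, adjusted by Benjamini and Hochberg's method, was under 0.05. Log2 differences are on that scale, are given ± SE, and understate changes of low genes. Counts at an unadjusted p, after another scaling or with a library left out are given for the members only. The share of all genes is not at hand for those counts, so they do not set the members apart from other genes. All 41 members were called higher in microglia cells than in astrocyte cells, where 20.8% of all 18410 genes tested were called higher and 43.6% lower. All 41 were also called higher in microglia cells than in neuron cells, beside 19.9% of genes called higher and 51.8% lower. The sEVs showed the same direction: all 41 were called higher in microglia sEVs than in astrocyte sEVs, beside 12.9% of 15514 genes called higher and 26.6% lower, and all 41 higher in microglia sEVs than in neuron sEVs, beside 13.6% and 45.3%. Of the 41 members, 33 would have passed the filter in the 12 astrocyte and neuron libraries alone. In the 6 astrocyte and neuron cell libraries alone, 30 would have, and in the 6 astrocyte and neuron sEV libraries alone 28. The others passed through microglia, so these counts could not have come out otherwise for them.

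The smallest of these differences belonged to members that all cultures expressed. Between cells they ran from a log2 difference of 3.64 for Irf9 to 15.03 for Iigp1 against astrocytes, among the 36 members with a value in both groups, with a median of 8.75 beside -0.84 for all genes. Against neuron cells the range was 3.17 for Stat2 to 14.43 for Iigp1 among 33 members, with a median of 9.97 beside -1.26. Between sEVs the range was 2.72 for Eif2ak2 to 15.85 for Iigp1 against astrocyte sEVs among 37 members, with a median of 9.20 beside -1.50. Against neuron sEVs it was 3.76 for Stat2 to 16.53 for Iigp1 among 35 members, with a median of 9.53 beside -3.01. The remaining members were listed at 0 in every library of the other group and have no fold. The medians for all genes, by contrast, also take in genes listed at 0 in a group. Zbp1 and Oasl1 were listed at 0 in all 12 astrocyte and neuron libraries.

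In microglia sEVs the members took a share of the summed normalized counts close to that in microglia cells, with a different balance of transcripts. Their summed normalized count was lower, at 3647736 to 4094562 in microglia sEVs against 4676308 to 5158486 in microglia cells, and the library sums were lower in sEVs as well. The libraries of the groups did not overlap for 32 of the 41 members, 9 of them higher in sEVs and 23 lower. Among all genes tested, 8.45% were higher without overlap and 24.9% lower. The members' median log2 difference, sEVs minus cells, was -0.53, beside -0.79 for all 19612 genes tested. For the 12485 genes that pass the filter in the 6 microglia libraries alone it was -1.30. The 19612 include genes that pass only through other cultures. All members reach 10 in every microglia library, so the shares without overlap are not a like measure for them. Among the 5181 coding genes averaging 1000 or more in microglia cells the median was -0.37. Those with lower mRNA in sEVs included Stat2, Rsad2, Gbp5, Igtp and both Mx genes, and those with higher mRNA included Isg20, Xaf1, Rtp4, Isg15 and Oas1a.

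How many of these differences were called depended on which libraries entered the fit. In the fit of all 18 libraries, 0 members were called higher and 2 lower in microglia sEVs, against 5.08% and 21.2% of 19612 genes, and 0 were higher and 3 lower at an unadjusted p under 0.05. That fit takes 1 spread per gene over all 6 groups, and for genes near 0 in astrocytes and neurons that spread is wide: the median SE of the members was 1.13 log2 units. In the fit of the 6 microglia libraries alone the median SE was 0.13, and 8 members were called higher and 18 lower, against 6.71% and 21.6% of 12485 genes. Over all genes in that fit the median SE was 0.68. A difference of a given size was thus more readily called for the typical member than for the typical gene, here and in the roles below. The larger share called is therefore not read as a trait of the members. The estimates are the same in both fits, whereas the error and the number of genes over which p was adjusted differ. None of these 26 changed sign under another pseudocount, filter, scaling, weighting or with any 1 of the 6 libraries left out. Of the 26, 14 kept their call under every one of these settings, which were added after the data had been seen. Microglia cells replicates 2 and 3 were the libraries whose absence cost most: 9 members were called lower without either, and 5 higher without replicate 2. Scaling moved the balance: 12 members were called higher and 11 lower with all libraries at the same total, and 14 higher and 13 lower after quantile normalization. Those scalings moved the median of all genes in the 18-library fit by 0.27 and 1.05. In the same 6 libraries the microglia markers were lower in sEVs for 11 of 14, with a median of -2.30. Fibroblast and meningeal markers moved the same way: the 7 of them summed to 0 to 930 in microglia sEVs and 780.5 to 20353 in microglia cells, and all 7 were called lower in microglia sEVs in the 18-library fit, with a median of -7.90. Of 5 endothelial markers tested, 4 were called lower. In the 9 sEV libraries alone, only 3 fibroblast and meningeal markers and 1 endothelial marker passed the filter. For the others the filter itself favours a lower sEV value, so these counts are not read as a result. The 7 endothelial markers listed summed to 2117, 0 and 0 in microglia sEVs, against 1280, 1764 and 1309 in microglia cells, so 1 sEV library exceeded every cell library. Their part in the members' differences was not tested.

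**Figure D2:**
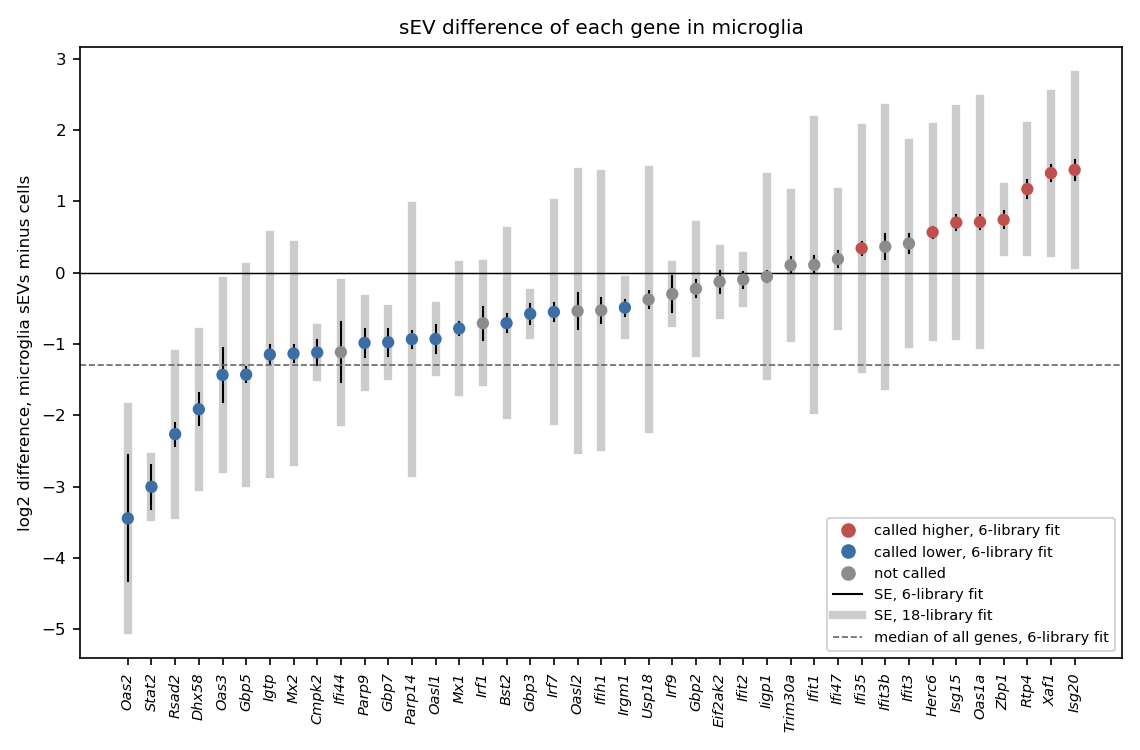
Log2 difference of each gene between microglia sEVs and microglia cells (sEVs minus cells), sorted from lowest to highest. Thin black bars are the SE of the fit of the 6 microglia libraries and thick grey bars the SE of the fit of all 18 libraries. Red and blue points mark genes called higher and lower with the 6 libraries, and the dashed line is the median of all genes in that fit. Most grey bars cross 0 and most black bars do not.

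Among the RNA sensors, 1 of 4 was called higher and 1 lower in microglia sEVs with the 6 libraries. Over all genes in that fit 6.71% were called higher and 21.6% lower, and each role holds few genes to set against this. Ifih1, which encodes the long double-stranded RNA sensor MDA5, had 143792, 114463 and 174932 normalized counts in microglia sEVs, against 224059, 185565 and 208351 in microglia cells. Its sEV libraries were all below the cell libraries, and the difference of -0.53 ± 0.17 was not called (adjusted p 0.0716, limma). In the other cultures Ifih1 had 338, 0 and 0 in astrocyte sEVs and 48.8, 179.8 and 97.6 in astrocyte cells, and 140.1, 0 and 42.7 in neuron sEVs and 108, 47.3 and 155 in neuron cells. Zbp1, a sensor of Z-form nucleic acid that can start cell death, had 19120.3, 23003 and 18190.0 in microglia sEVs, against 12389.6, 12128 and 11410.2 in microglia cells. All sEV libraries were higher, by a log2 difference of 0.74 ± 0.12 (adjusted p 0.00477, limma), although the call was lost without microglia cells replicate 2 or 3. Dhx58 encodes LGP2, a RIG-I relative without signalling domains, and had 3671, 4944 and 6192 in microglia sEVs, against 17200.0, 21649 and 16251 in microglia cells. It was lower, at -1.92 ± 0.22 (adjusted p 0.00103, limma) with no overlap. Eif2ak2, the kinase PKR that stops translation on double-stranded RNA, had 9123, 7304 and 9874 in microglia sEVs and 10327, 8599 and 9674 in microglia cells, and the groups overlapped. Rigi had 16828, 8376 and 14504 in microglia sEVs, against 20003, 22062 and 22109.5 in microglia cells, without overlap and without a call in the 18-library fit (adjusted p 0.824, limma).

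Of the 4 transcription factors, 2 were called lower and 0 higher in microglia sEVs with the 6 libraries, beside 21.6% and 6.71% of all genes. Stat2, a transcription factor of the type I interferon response, had 1759, 3919 and 3541 normalized counts in microglia sEVs, against 23294, 22628 and 23892 in microglia cells. Every sEV library lay far below every cell library. Stat2 fell, with a log2 difference of -3.00 ± 0.42 in the 18-library fit (adjusted p 8.43e-05, limma), and the call held under all 27 alternatives run. Irf7, the amplifier of type I interferon production, had 19949, 23685 and 26905 in microglia sEVs, against 32254, 34701 and 35829 in microglia cells, a difference of -0.55 ± 0.13 in the 6-library fit (adjusted p 0.0233, limma). That call was lost without any 1 of the 3 microglia cell libraries, at equal totals and after quantile normalization. Irf7 was near 0 elsewhere, with 0, 120.3 and 5.25 in astrocyte sEVs, 16.1, 14 and 0 in astrocyte cells and 0, 0 and 17 in neuron sEVs, and was listed at 0 in neuron cells. Irf1, a factor induced by interferon gamma as well, had 34706, 23037 and 23672 in microglia sEVs, against 51011, 33405 and 48621 in microglia cells, and 1 sEV library exceeded the lowest cell library. Irf1 shares 135 exon bases with Gm17334 on the opposite strand. Irf9, the DNA-binding partner of STAT2, overlapped between 4532, 6314 and 8471 in microglia sEVs and 6743, 8245 and 8141 in microglia cells.

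The Ifit genes, whose proteins bind foreign RNA and block its translation, gave 0 calls among 4 genes in microglia by limma in either fit. In the 6-library fit Ifit3 and Ifit3b were called higher at equal totals and after quantile normalization, and Ifit1 after quantile normalization, and Ifit3 had an unadjusted p under 0.05 without them. Ifit1 had 615521, 581262 and 628778 normalized counts in microglia sEVs, against 581785, 496269.9 and 622272 in microglia cells. Ifit2 had 616852, 562339.7 and 685586 in microglia sEVs, against 671577, 641667 and 676962 in microglia cells. Both genes overlapped between the groups, with differences of 0.11 ± 0.12 and -0.10 ± 0.11. Ifit3 had 397068, 357517 and 442942 in microglia sEVs, against 314759, 259337 and 330008 in microglia cells, with every sEV library higher and no call (adjusted p 0.0795, limma, 6-library fit). Ifit3b showed a similar difference of 0.36 ± 0.18, and its transcript is 97.8% identical to that of Ifit3 over 1700 bases, so the split of reads between them is uncertain. Outside microglia the family was uneven. Ifit1 had 0, 14.2 and 1197 in astrocyte sEVs and 100.2, 0 and 188 in astrocyte cells and was listed at 0 in every neuron library. Ifit2 was present in every library, with 1561, 4728 and 1684 in astrocyte sEVs, 826, 816 and 921 in astrocyte cells, 458, 713 and 980.3 in neuron sEVs and 581, 521 and 635 in neuron cells.

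The OAS genes, which encode synthetases of the messenger that activates RNase L and their relatives, divided in microglia. Oas1a had 74629, 86025 and 85216 normalized counts in microglia sEVs, against 50245, 46479 and 53648 in microglia cells, and was higher by 0.71 ± 0.10 in the 6-library fit (adjusted p 0.00276, limma). It overlaps in sequence with Oas1g, 97.6% identical over 1861 bases, so this level is shared in an unknown part. Oasl2 had 31142, 54901 and 58929 in microglia sEVs, against 67811, 65313 and 69729.6 in microglia cells, a difference of -0.54 ± 0.25 that was not called, and 1 sEV library was much lower than the other sEV libraries. Oas2 had 118, 944 and 1190.5 in microglia sEVs, against 6326, 5635 and 4851 in microglia cells. Its 3 sEV libraries spread widely among themselves and all lay below the cells, with a difference of -3.45 ± 0.88 (adjusted p 0.0302, limma). Oas3 and Oasl1 were also called lower, at -1.43 ± 0.37 and -0.93 ± 0.19. Calls for Oas2, Oas3 and Oasl1 were lost without any 1 of the 3 microglia cell libraries, and those of Oas3 and Oasl1 also at equal totals and after quantile normalization. The Oas3 call was further lost without a filter and with library weights. Oas1a was listed at 0 in astrocyte cells and neuron cells, with 0, 0 and 237 in astrocyte sEVs and 0, 0 and 38.9 in neuron sEVs. Oasl2 stayed low there, with 0, 290.2 and 239 in astrocyte sEVs, 32.3, 44.3 and 100.3 in astrocyte cells, 41.1, 50.7 and 0 in neuron sEVs and 30, 19.5 and 0 in neuron cells.

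Both Mx genes, dynamin-like GTPases that trap viral components, were lower in microglia sEVs. Mx1 had 34047, 34551 and 30370.0 normalized counts in microglia sEVs, against 56472, 58650.3 and 55073 in microglia cells, a difference of -0.78 ± 0.09 (adjusted p 0.000982, limma, 6-library fit). Mx2 had 5744, 6590.0 and 6869 in microglia sEVs, against 14725, 14609 and 12839.8 in microglia cells, a difference of -1.14 ± 0.12 (adjusted p 0.000756). Neither gene overlapped between the groups, and both calls held under all 11 added settings. Their transcripts share 95.3% identity over 843 bases. Mx1 was listed at 0 in every astrocyte library and neuron sEV library and had 0, 19.7 and 0 in neuron cells, whereas Mx2 had 611, 224 and 5.52 in astrocyte sEVs, 124, 221 and 120.0 in astrocyte cells, 41, 39.1 and 70.6 in neuron sEVs and 75.5, 0 and 45.1 in neuron cells.

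The other antiviral effectors divided as well, with 2 of 6 called higher and 3 lower in microglia sEVs with the 6 libraries. Of all genes, 6.71% were called higher and 21.6% lower in that fit. Rsad2, or viperin, which makes a chain-terminating nucleotide, had 179378, 141900.4 and 120999.6 normalized counts in microglia sEVs, against 655054, 699328 and 746885 in microglia cells. Its mean in sEVs was 21% of that in cells, with a log2 difference of -2.27 ± 0.16 in the 6-library fit (adjusted p 0.000236, limma) and an SE of 1.13 in the 18-library fit, where it was not called. Cmpk2, the nucleotide kinase encoded beside Rsad2, had 260167, 244309.7 and 364900.5 in microglia sEVs, against 574684, 614906 and 673809.5 in microglia cells. Cmpk2 fell, with a log2 difference of -1.12 ± 0.34 in the 18-library fit (adjusted p 0.0247, limma). Leaving out either microglia sEV replicate 1 or 2, or any 1 microglia cell library, ended that call, with adjusted p up to 0.0824 in limma. It also ended at equal totals, after quantile normalization and with library weights, where the difference was as small as -0.50 and the adjusted p as high as 0.367, whereas the 6-library call held in all 11 settings. Isg20, a 3′ to 5′ exonuclease of single-stranded RNA, went the other way with 22816, 28543 and 22022 in microglia sEVs, against 8028, 9753 and 9165 in microglia cells. Its mean was 2.72 times as high in sEVs, with a difference of 1.44 ± 0.14 (adjusted p 0.000513, limma, 6-library fit). Rtp4, a chaperone of membrane receptors with antiviral activity, had 118201, 144518 and 110362 in microglia sEVs, against 56005, 52785 and 55808 in microglia cells, 2.27 times as high in sEVs on the means. Bst2, or tetherin, which holds budding virions at the membrane, was lower in microglia sEVs, at -0.71 ± 0.13, a call lost without microglia cells replicate 2 or 3 and at equal totals. Ifi44 had 934, 885 and 825 in microglia sEVs, against 1270.4, 1589 and 3445 in microglia cells, and was not called.

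In the ISG15 system, the modifier and its ligase were higher in microglia sEVs and the protease was not called. Isg15, a ubiquitin-like protein joined to others during infection, had 83950.0, 102641 and 101522 normalized counts in microglia sEVs, against 57731, 57953 and 60778 in microglia cells. The groups did not overlap, and the difference was 0.70 ± 0.11 (adjusted p 0.00352, limma, 6-library fit). Herc6, the main ISG15 ligase in the mouse, had 67018, 66778 and 68596 in microglia sEVs, against 45106, 44541 and 47139 in microglia cells, with replicates close together and a difference of 0.57 ± 0.08 (adjusted p 0.00205), a call lost without microglia cells replicate 2. An annotated gene on the same strand, Gm45193, shares 1269 exon bases with Herc6. Usp18, which removes ISG15 and damps the receptor, had 64276, 57412 and 63009 in microglia sEVs, against 70816, 78121 and 92099.6 in microglia cells, with no overlap and no call (adjusted p 0.0694). Isg15 was low elsewhere, with 0, 165 and 59.6 in astrocyte sEVs, 14.6, 7.21 and 6.75 in astrocyte cells, 42.8, 27.6 and 0 in neuron sEVs and 11.9, 30.9 and 4.08 in neuron cells. Usp18 had 0, 0 and 179 in astrocyte sEVs, 62, 140.5 and 125 in astrocyte cells, 0, 0 and 56.6 in neuron sEVs and 83.3, 10.3 and 188 in neuron cells.

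Of the 8 guanylate-binding and immunity-related GTPases, which attack vacuoles of intracellular pathogens, 5 were called lower in microglia sEVs with the 6 libraries and 0 higher. The shares of all genes in that fit were 21.6% lower and 6.71% higher. Gbp5 had 17482, 16035 and 17235 normalized counts in microglia sEVs, against 50672, 42243 and 44273 in microglia cells, a difference of -1.43 ± 0.10 (adjusted p 0.000242, limma). Igtp had 50246, 38900.5 and 45963 in microglia sEVs, against 92322, 94632 and 112272 in microglia cells, a difference of -1.15 ± 0.14 (adjusted p 0.00104). Both were lower in every sEV library and held in all 11 added settings. Gbp7, Gbp3 and Irgm1 were called lower, at -0.98 ± 0.19, -0.58 ± 0.14 and -0.49 ± 0.11, and each of these calls was lost without microglia cells replicate 2 or 3, and that of Irgm1 also without replicate 1. The Gbp3 and Irgm1 calls were also lost at equal totals and after quantile normalization, and that of Gbp3 with library weights. Gbp2, the most abundant of the family per base of transcript, had 217389, 240931 and 250234 in microglia sEVs, against 242523, 286824 and 302486 in microglia cells, and the groups overlapped. Irgm1, a regulator of the other immunity-related GTPases, had 112922, 89139 and 106071 in microglia sEVs, against 145022, 139135 and 146989 in microglia cells, without overlap. Iigp1 and Ifi47 differed by -0.06 ± 0.08 and 0.19 ± 0.11 and were not called. Gbp2 and Irgm1 were detected in every library of the other cultures: Gbp2 had 1057, 1744 and 748 in astrocyte sEVs, 1735, 1777 and 1506 in astrocyte cells, 249, 5.26 and 37 in neuron sEVs and 60.5, 67.2 and 209.9 in neuron cells. Irgm1 had 1158, 844 and 509.6 in astrocyte sEVs, 581, 539 and 817 in astrocyte cells, 496, 219 and 412 in neuron sEVs and 234, 161 and 447 in neuron cells.

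The remaining 5 members also divided. Xaf1, a pro-apoptotic zinc finger protein, had 68438, 72915 and 60111 normalized counts in microglia sEVs, against 23073, 26788 and 26699.7 in microglia cells, 2.63 times as high in sEVs on the means (adjusted p 0.00029, limma, 6-library fit). Ifi35 was higher by 0.34 ± 0.10, a call lost when any 1 microglia cell library or microglia sEV replicate 1 or 2 was left out, and with library weights. Parp14 and Parp9, ADP-ribosyltransferase family members, were lower, at -0.93 ± 0.12 and -0.99 ± 0.20, and the Parp9 call was lost without any 1 microglia cell library and at equal totals. Parp9 shares 458 exon bases with Dtx3l on the opposite strand, and the libraries do not mark strand. Trim30a, a ubiquitin ligase that restrains inflammatory signalling in mouse cells, had 41623, 50721 and 50810.4 in microglia sEVs and 42640.1, 43821 and 46302 in microglia cells, and the groups overlapped. In the other cultures Xaf1 had 4.39, 61.1 and 248 in astrocyte sEVs, 55.9, 51.3 and 80.7 in astrocyte cells, 45.4, 35.7 and 93.4 in neuron sEVs and 73.6, 4.32 and 40.3 in neuron cells.

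**Figure D3:**
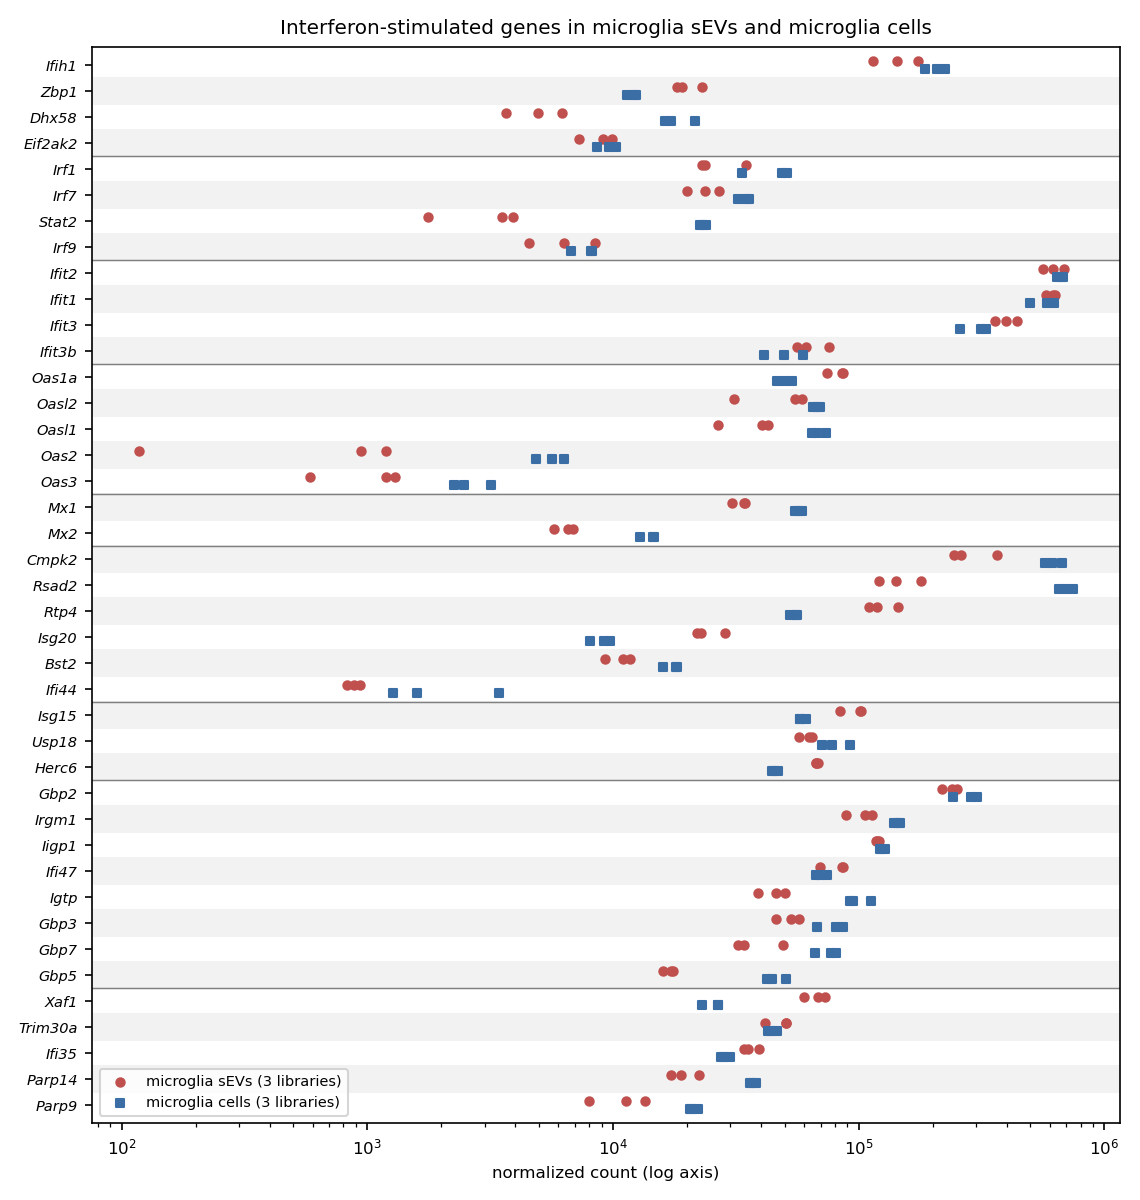
Normalized count of each gene in the 3 microglia sEV libraries (red circles) and the 3 microglia cell libraries (blue squares), on a log axis, with genes grouped by role as in the text. Isg20, Xaf1 and Rtp4 lie to the right in sEVs, Stat2, Rsad2 and Oas2 lie far to the left, and Ifit1 and Ifit2 overlap.

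Longer members tended to be lower in microglia sEVs. Across the 41 members the log2 difference had a Pearson correlation of -0.49 and a Spearman correlation of -0.56 with log2 coding length, and -0.45 and -0.48 with log2 transcript length. Correlation with GC content was -0.06. The 13 members above 0 had a median transcript length of 1885 bases and the 28 below 0 one of 3122 bases. The relation was not particular to these genes: over the 5181 abundant coding genes the correlations with log2 coding length were -0.33 and -0.43. These are descriptions across genes of the same 6 libraries, and genes are not independent replicates. Rsad2, with a coding length of 1086 bases, and Bst2, with 516, were short and low, and Herc6, with 3009, was long and high. Per kilobase of annotated transcript, the order of the members in microglia cells began with Ifit1, Cmpk2, Rsad2, Ifit2 and Ifit3. In microglia sEVs it began with Ifit1, Ifit3, Ifit2, Isg15 and Gbp2, and Rsad2 ranked 11 there, against 3 in microglia cells.

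**Figure D4:**
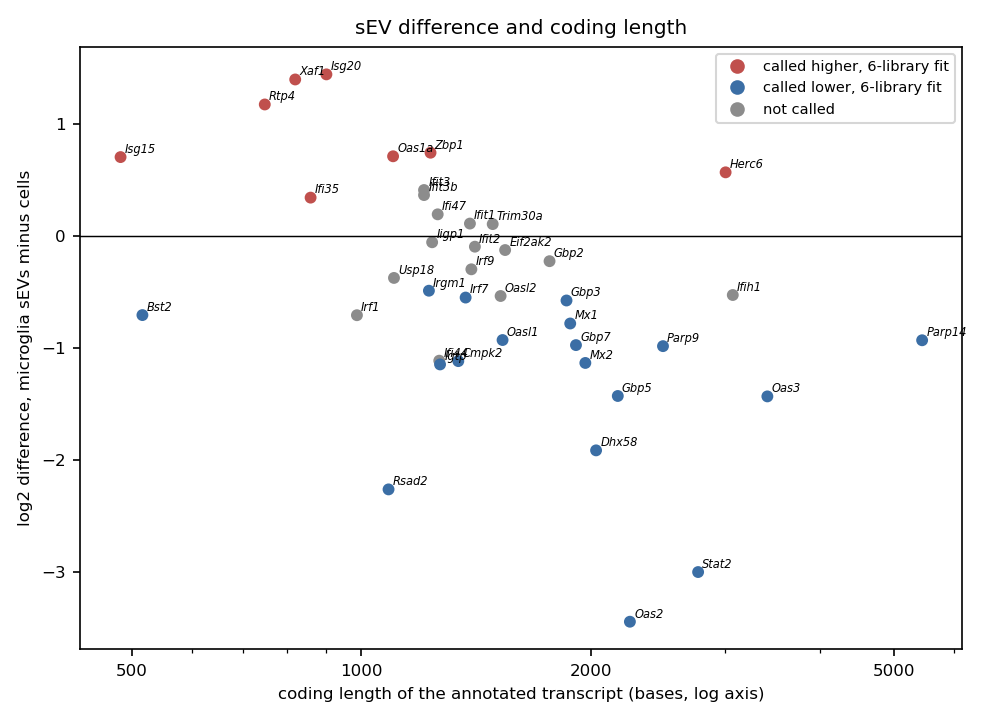
Log2 difference of each gene between microglia sEVs and microglia cells (sEVs minus cells) against the coding length of its annotated transcript in bases, on a log axis. Points are the 41 genes, coloured by the call in the fit of the 6 microglia libraries. Short genes such as Isg15, Rtp4 and Xaf1 lie above 0, long ones such as Stat2, Oas3 and Parp14 below, and Rsad2 and Herc6 stand apart from that trend.

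In astrocytes, 2 members were called higher in sEVs and 5 lower, against 8% and 18.6% of genes. After quantile normalization the counts were 8 higher and 4 lower. Only 32 of the 41 members pass the filter in the 6 astrocyte libraries alone, and the others entered these tests through other cultures. The libraries did not overlap for 7 members higher and 5 lower, beside 15.3% and 27.2% of genes. The median of the 35 members with a value in both groups was -0.58. Over all 41 members it was -0.38, beside -0.60 for all genes tested. Stat2 had 61.6, 156 and 92 normalized counts in astrocyte sEVs, against 1408, 952 and 1719 in astrocyte cells, and fell, at -3.77 ± 0.42 (adjusted p 1.12e-05, limma). Herc6 had 0, 0 and 12.6 in astrocyte sEVs, against 102, 252 and 357 in astrocyte cells. It fell, at -6.47 ± 1.47 (adjusted p 0.00446, limma), with a size that the pseudocount partly sets, since 2 sEV libraries were listed at 0. Bst2 had 0, 148 and 17.5 in astrocyte sEVs, against 232, 164 and 508 in astrocyte cells, and fell, at -4.26 ± 1.29 (adjusted p 0.0236). Dhx58 also fell, and Ifi44 was called lower and listed at 0 in astrocyte sEVs, with 34.9, 18.5 and 0 in astrocyte cells. Ifi44 passed the filter only through its microglia level and is not tested in the fit of the 6 astrocyte libraries, so its call adds nothing here. Trim30a had 523, 102 and 86.7 in astrocyte sEVs, against 18.2, 25.1 and 8.43 in astrocyte cells, and rose by 3.32 ± 1.01 (adjusted p 0.0247, limma). Ifit2, with the values given above, rose by 1.44 ± 0.33 (adjusted p 0.00503, limma), and all 3 sEV libraries exceeded the cells. The Stat2 and Herc6 calls held under all 27 alternatives. They were also the only members called with the 6 astrocyte libraries alone, 0 higher and 2 lower, and there Ifit2 (adjusted p 0.0511), Trim30a (0.0699), Bst2 (0.136) and Dhx58 (0.159) were not called by limma. Bst2, Dhx58, Ifi44 and Trim30a lost theirs without astrocyte sEVs replicate 1 or without astrocyte cells replicate 1. Calls ended too without astrocyte sEVs replicate 2 for Ifi44 and replicate 3 for Dhx58, and without astrocyte cells replicate 2 for Ifi44 and replicate 3 for Bst2, Dhx58 and Trim30a.

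In neurons, 3 members were called higher in sEVs and 4 lower, against 11.1% and 18.9% of genes. After quantile normalization they were 6 higher and 5 lower. Only 30 of the 41 members pass the filter in the 6 neuron libraries alone, and the others entered these tests through other cultures. The libraries did not overlap for 6 members higher and 4 lower, beside 22.7% and 34.2% of genes. The median of the 32 members with a value in both groups was -0.16. Over all 41 members it was 0, beside -0.47 for all genes tested. Stat2 had 288, 149 and 226 normalized counts in neuron sEVs, against 2759.7, 1817 and 3424 in neuron cells, and fell, at -3.59 ± 0.42 (adjusted p 1.14e-05, limma). Irf1 had 115, 6.99 and 49.1 in neuron sEVs, against 301, 175 and 313 in neuron cells, and fell, at -2.83 ± 0.83 (adjusted p 0.0171). Igtp had 0, 36.3 and 23 in neuron sEVs, against 199.9, 336 and 416 in neuron cells, and fell, at -4.98 ± 1.68 (adjusted p 0.0355). In all of these genes every sEV library lay below every cell library. Rsad2 fell as well, with 0, 66.7 and 0 in neuron sEVs, against 125, 70.2 and 59.9 in neuron cells, although the libraries overlapped. Eif2ak2 had 209, 642 and 829 in neuron sEVs, against 97.7, 141 and 138 in neuron cells, and rose by 1.95 ± 0.46 (adjusted p 0.0046, limma). Gbp3 had 641, 703 and 1459 in neuron sEVs, against 270.2, 436 and 269 in neuron cells, and rose by 1.45 ± 0.30 (adjusted p 0.00152, limma). Trim30a had 73.8, 63.5 and 139 in neuron sEVs, against 0, 13.7 and 34.2 in neuron cells, and rose by 3.45 ± 1.01 (adjusted p 0.0176). Stat2, Eif2ak2 and Gbp3 kept their calls under all 27 alternatives. With the 6 neuron libraries alone 3 members were again higher and 4 lower, but not the same ones: Rsad2 (adjusted p 0.0501) and Trim30a (0.054) were not called by limma, and Bst2 was called lower (0.0138) and Rtp4 higher (0.021). Irf1, Igtp and Trim30a lost theirs without neuron cells replicate 1. Calls ended too without neuron sEVs replicate 1 for Igtp, 2 for Irf1 and 3 for Trim30a, and without neuron cells replicate 2 for Igtp and 3 for Irf1 and Igtp.

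Averaged with equal weight over the 3 cell types, 5 members were called higher in sEVs and 9 lower, against 12% and 37.1% of genes. After quantile normalization 9 were higher and 4 lower. Stat2 gave the clearest difference, with a mean log2 difference of -3.45 ± 0.24 (adjusted p 3.21e-08, limma) and the same sign in all 3 types. Irf1, Igtp, Bst2, Dhx58 and Usp18 were also lower with 1 sign in all 3 types, and Trim30a and Rtp4 were higher with 1 sign in all 3. Ifit2, Gbp3 and Eif2ak2 were called higher although their difference was below 0 in microglia. Rsad2 was called lower although its difference was above 0 in astrocytes, and Herc6 although it was above 0 in microglia. Ifi44, called lower, was listed at 0 in all neuron libraries and passed the filter only through microglia. Several of these calls were often lost: of 26 alternatives, the call held under 3 for Ifi44, 9 for Usp18, 10 for Rsad2, 15 for Rtp4, 16 for Ifit2 and 18 for Gbp3. Trim30a averaged 2.29 ± 0.59 and Rtp4 1.41 ± 0.51.

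Whether the sEV difference itself varied with the cell type was tested as the difference of the 2 differences. Between microglia and astrocytes 1 member was called with a higher and 2 with a lower sEV difference in microglia, against 4.53% and 8.77% of genes. Herc6, higher in microglia sEVs and lower in astrocyte sEVs than in the matching cells, differed by 7.03 ± 2.09 (adjusted p 0.0372, limma). Cmpk2 had 298, 786 and 895 normalized counts in astrocyte sEVs and 468, 244 and 390.3 in astrocyte cells, and differed by -1.86 ± 0.48 (adjusted p 0.0181, limma) from microglia. Ifit2 differed by -1.54 ± 0.47 (adjusted p 0.0443). Between microglia and neurons 0 members had a higher and 2 a lower sEV difference in microglia, against 7.82% and 12.9% of genes, and at an unadjusted p under 0.05 limma gave 0 higher and 6 lower. Gbp3 had 46297, 57379.6 and 53248 in microglia sEVs and 67434, 86702 and 80588 in microglia cells, and differed from neurons by -2.03 ± 0.42 (adjusted p 0.0028, limma). Eif2ak2 differed by -2.08 ± 0.65 (adjusted p 0.0351). In astrocytes, too, every sEV library lay above every cell library for both genes. The astrocyte difference was 1.30 ± 0.46 for Eif2ak2 and 0.55 ± 0.30 for Gbp3, without a call (adjusted p 0.0501 and 0.193, limma). Between astrocytes and neurons limma called 0 members in either direction, against 2.47% and 2.63% of genes, and 7 members had an unadjusted p under 0.05. Gbp3 held its call under all 26 alternatives, Cmpk2 under 24, Herc6 and Eif2ak2 under 14 and Ifit2 under 9.

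**Figure D5:**
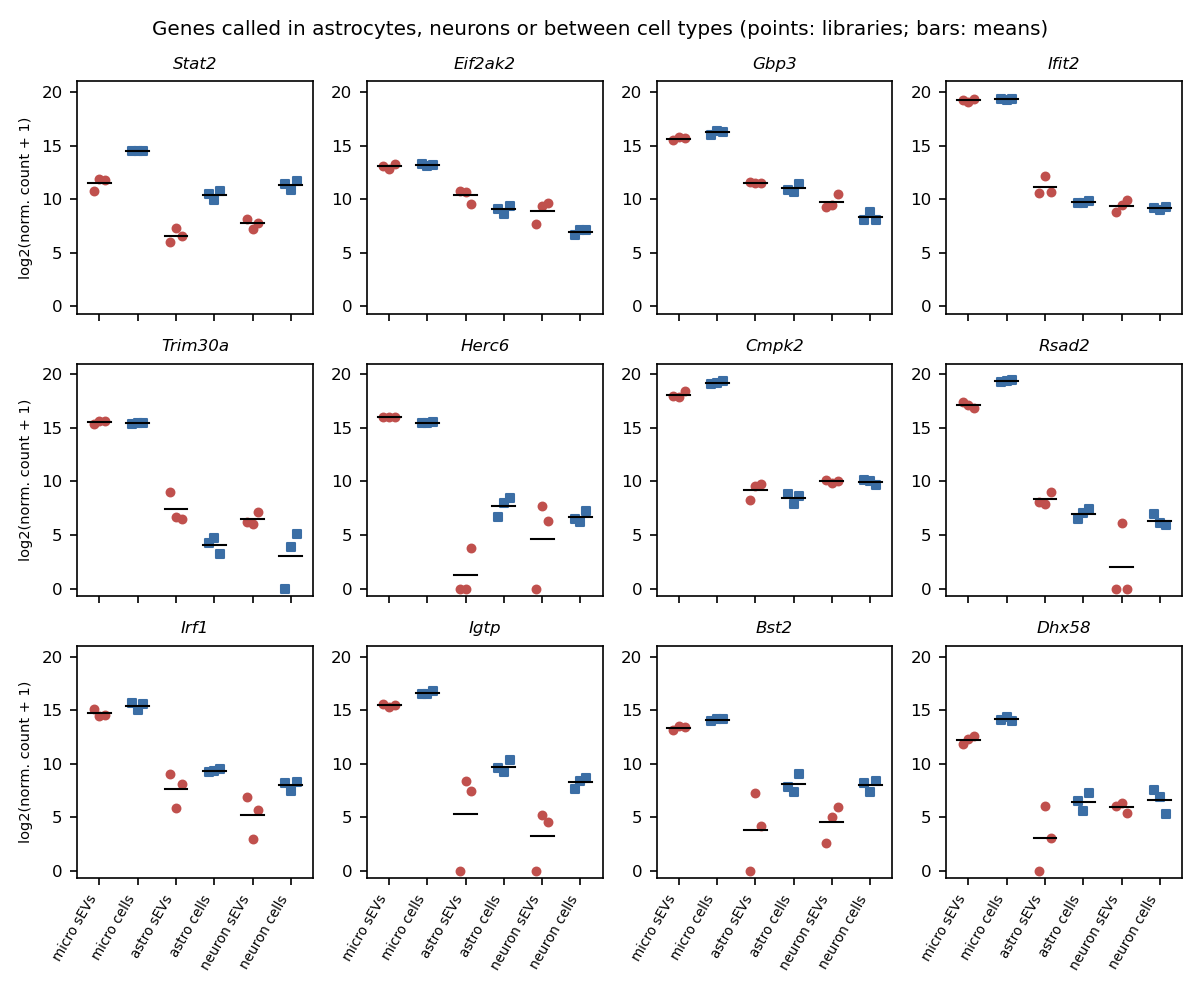
Log2 of the normalized count plus 1 of 12 genes called in microglia, astrocytes, neurons or between them. Points are single libraries, red circles for sEVs and blue squares for cells, and black bars are group means. Stat2 is lower in sEVs than in cells in all 3 cell types. Eif2ak2 and Gbp3 are higher in neuron sEVs and astrocyte sEVs than in the matching cells and not in microglia sEVs. Their astrocyte differences were not called.

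Astrocyte and neuron cultures differed from each other in some members, most of which had a value in both. Only 30 of the 41 pass the filter in their 6 cell libraries alone, and 28 in their 6 sEV libraries alone. The others entered these tests through microglia. Of the 41, 11 were called higher in astrocyte cells than in neuron cells and 2 lower, against 10.4% and 22.1% of genes, and after quantile normalization 22 were higher and 1 lower. Gbp2 was higher by 4.12 ± 0.41, Gbp7 by 3.11 ± 0.41 and Gbp3 by 2.70 ± 0.25 (adjusted p 0.000118, 0.000586 and 8.44e-05, limma), each without overlap between the groups. Eif2ak2 was higher by 2.10 ± 0.24. Cmpk2 and Stat2 were lower in astrocyte cells, at -1.50 ± 0.23 and -0.97 ± 0.27. In sEVs, 6 members were called higher in astrocyte than in neuron sEVs and 0 lower, against 3.13% and 11.8% of genes, and at an unadjusted p under 0.05 limma gave 10 higher and 0 lower. They were Gbp2, Gbp3, Gbp7, Ifit2, Ifit3 and Rsad2, and the 3 Gbp genes and both Ifit genes were also called between the cells. Gbp7 differed by 2.31 ± 0.49 (adjusted p 0.0158, limma). Of the 6, all but Gbp3 lost the call when some single library was left out, down to 1 call.

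Other genes of the pathway were counted from 4 lists. Of 23 interferon genes, 5 passed the filter in the 18 libraries, and 4 were called lower in microglia sEVs, where 21.2% of all genes were. In the 9 sEV libraries alone only 1 passed the filter, and in the 9 cell libraries alone 4. For genes that did not pass in sEVs the filter itself favours a lower sEV value. The count is therefore not read against that share. Ifnb1, which encodes interferon beta, averaged 2224 ± 1210.2 normalized counts in microglia sEVs, against 5987 ± 1375 in microglia cells (SD, n = 3 each), and was listed at 0 in every astrocyte and neuron library. It fell in microglia sEVs, at -1.55 ± 0.51 (adjusted p 0.0375, limma). Ifna2, Ifna4 and Ifna5 were the others, each listed at 0 in some microglia sEV libraries. Of 15 receptor and JAK-STAT genes tested, 3 were called lower in microglia sEVs and 0 higher, a share near the 21.2% and 5.08% of all genes. Ifnar1, a chain of the type I interferon receptor, averaged 2852 ± 2030.4 in microglia sEVs, against 17527 ± 1926 in microglia cells (SD, n = 3 each), and fell, at -2.83 ± 0.42 (adjusted p 0.000151, limma). Stat3 fell, at -1.52 ± 0.20. In astrocytes 3 genes of that list were called higher and 7 lower, beside 8% and 18.6% of all genes, and in neurons 2 and 3, beside 11.1% and 18.9%. Of 11 upstream sensing genes, Mavs and Trim25 were called lower in microglia sEVs, at -5.50 ± 1.42 and -1.84 ± 0.51. Of 61 further interferon-induced genes tested, 7 were called lower in microglia sEVs and 0 higher in the 18-library fit, beside 21.2% and 5.08% of all genes. Only 38 of the 62 listed pass the filter in the 12 astrocyte and neuron libraries, and that fit has a wide spread for genes near 0 there. The smaller share is therefore not read as a trait of these genes. The lower ones were led by Daxx at -1.59 ± 0.28, Tor3a at -2.13 ± 0.51 and Adar at -1.75 ± 0.43. Oas1c was also called lower and was listed at 0 in microglia sEVs. In the cells, 59 of 61 were called higher in microglia than in astrocytes, beside 20.8% of all genes higher and 43.6% lower. Only 30 of the 62 genes listed pass the filter in the 6 astrocyte and neuron cell libraries, so the count could not have come out otherwise for many of them.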

How the data were processed

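The deposited table holds normalized counts per gene and library, a signal that the authors made from the reads. Per the submitters' processing notes, which give no order, the tools and build were Salmon 1.8.0, DESeq2 and GRCm39; the annotation release and filters are not given in the sources used here. Per the labels' protocols, polyadenylated RNA was amplified with a low-input oligo-dT kit; such kits do not mark strand and, where RNA is broken, read mainly its 3′ part. The deposited group means were not used, because in microglia sEVs most differed from the mean of the replicates.

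From these values, log2(normalized count + 1) was fitted with limma 3.58.1 in R 4.3.3 with a mean-variance trend, keeping genes with at least 10 in at least 3 libraries. One fit of all 18 libraries gave sEVs against cells and the differences between types, and fits of 9 libraries gave pairs of cells and pairs of sEVs. Adjusted p-values are Benjamini-Hochberg over all genes tested. Tests were checked on simulated data. For sEVs against cells, a simulated log2 shift of 2 was called in 16% of cases in microglia, 11% in astrocytes and 18% in neurons. For the differences between cell types it was called in 3 to 6%. A gene without a call is therefore not shown to be equal. Depth in reads is unknown. Transcripts come from GENCODE M21 and promoters from RefSeq on GRCm38.p6, for names, lengths and sequence only. The members and lists were chosen with earlier results of these data known. Values in every library were given for the 2 most abundant members of each role, for the largest called changes without overlap and for called differences between cell types. Other members given in every library, such as Eif2ak2, Irf9, Ifit3, Isg20, Oas2, Rtp4, Ifi44 and Gbp5 in microglia, were chosen after their values were seen. Alternatives were the pseudocount, the filter, scaling to equal totals, quantile normalization, library weights, a replicate block, the libraries in the fit and leaving out each library. Those of the 6-library microglia fit were chosen after seeing the data. One gene of the pathway lists is not reported here by name.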

Additional observations from a re-analysis of the deposited data

Results flagged for a closer look

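In limma's test of the difference itself, the sEV difference was called as unlike between cell types for 5 genes, 1 higher and 2 lower of 41 between microglia and astrocytes, beside 4.53% and 8.77% of all genes, and 2 lower between microglia and neurons, beside 12.9%. Between microglia and astrocytes the log2 difference of differences was -1.54 for Ifit2, -1.86 for Cmpk2 and 7.03 for Herc6. Between microglia and neurons it was -2.03 for Gbp3 and -2.08 for Eif2ak2. Of 26 alternatives, the call held in all for Gbp3, in 24 for Cmpk2, in 14 for Herc6 and for Eif2ak2 and in 9 for Ifit2. Herc6 was listed at 0 in 2 astrocyte sEV libraries, so its value depends on the pseudocount.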

How the results depend on the processing

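No called member changed sign under any alternative run. Of the single values for members, 1689 kept their side of the threshold and 70 lost it under other settings, and 2047 kept it and 170 lost it when 1 library was left out. Except where members no longer passed the filter, the cause of the changes below was not tested.

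For microglia sEVs against microglia cells, the members called lower numbered 4 with a pseudocount of 10, 1 at equal totals, 1 after quantile normalization, 1 with library weights and 18 with only the 6 microglia libraries, where 8 were higher; leaving out 1 library gave 1 to 3 lower and 0 higher. In the 6-library fit quantile normalization gave 14 higher and equal totals 11 lower, and leaving out a library gave 5 to 8 higher and 9 to 19 lower. For astrocytes, 8 were higher after quantile normalization, 1 with library weights and 0 with only the 6 libraries, where 2 were lower, and leaving out a library gave 1 to 5 higher and 3 to 6 lower. For neurons, 6 were higher after quantile normalization and 6 with library weights, and leaving out a library gave 2 to 5 higher and 2 to 6 lower. For the mean of the 3 types, quantile normalization gave 9 higher and 4 lower and library weights 3 higher and 5 lower, with 2 to 6 higher and 6 to 9 lower when a library was left out.

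For the difference between microglia and astrocytes, 0 were higher without a filter and 0 with library weights, and the lower ones numbered 4 with a pseudocount of 10, 1 without a filter, 0 at equal totals, 4 after quantile normalization and 1 with library weights; leaving out a library gave 0 to 2 higher and 1 to 3 lower. Between microglia and neurons quantile normalization gave 1 higher, equal totals 1 lower and library weights 1 lower, with 0 to 2 higher and 1 to 3 lower when a library was left out. Between astrocytes and neurons 1 was higher with a pseudocount of 10, at equal totals, after quantile normalization and with library weights, 1 was lower after quantile normalization, and leaving out a library gave 0 to 2 higher and 0 to 1 lower. Between astrocyte and neuron cells quantile normalization gave 22 higher and 1 lower and all 18 libraries 7 higher and 1 lower, with 11 to 13 higher and 1 to 2 lower when a library was left out. Between their sEVs quantile normalization gave 10 higher and all 18 libraries 10 higher, with 1 to 6 higher and 0 to 1 lower. With a library left out, 37 to 41 members were called higher in microglia cells than in either of the other cells. In microglia sEVs it was 34 to 41 against astrocyte sEVs and 35 to 41 against neuron sEVs. No member still tested lost its call in the pairs of cells or against neuron sEVs, so the lower counts there are members that no longer passed the filter. Against astrocyte sEVs 16 single values lost the call over all alternatives.

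The labels do not say whether libraries of 1 number share a culture. Same-numbered sEV and cell libraries correlated in their deviations by -0.040 to 0.044, and 6 of 9 sEV libraries correlated best with their own number, a hint from the data that does not settle whether they are paired. With a replicate block, the members called lower were 1 in microglia, 3 in astrocytes and 4 in neurons, with 0, 2 and 3 higher. The mean of the types gave 3 higher and 8 lower with the block. The block left 1 higher and 0 lower between microglia and astrocytes, 0 and 1 between microglia and neurons, and 0 and 0 between astrocytes and neurons in limma. Under the block the microglia call of Cmpk2 and the differences between cell types of Ifit2, Cmpk2 and Eif2ak2 were not called.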
